A study of Mus musculus with 25 samples.

Results

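Brain expression in B6.C-D7Mit353, a congenic mouse strain, was compared with that in C57BL/6J, the background strain, called B6 here. The comparison took every brain array of the triplicates that the study's design names, and every probe that reached a signal to noise ratio of 3, called detected here, on 3 or more of those 6 arrays. This gave 6 of the 25 arrays of the series and 16908 of the 32996 probes, which named 8799 genes when 1 probe was kept for each gene. The study asked which transcripts differ between a lean strain and its background in brain, liver, gonadal fat and gastrocnemius muscle, with 1 sample on each 1-colour Applied Biosystems array. The congenic group was strain B6.C-D7Mit353, homozygous and lean per the labels, with replicates 1, 3 and 4. The control group was C57BL/6J, with replicates 1, 2 and 3. The labels used here give no treatment, age or sex for either group, and they do not say how the brain was dissected.

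A congenic strain carries a stretch of donor chromosome on the genome of its background strain, so most of the genome is shared by both groups. The marker in the strain's name, D7Mit353, lies on chromosome 7. The brain is an organ of energy balance: its hypothalamic neurons read signals from fat and gut and set food intake and energy use. A piece of whole brain holds neurons, glia and vessels, and also the meninges, the choroid plexus and the blood left in the vessels, which bring in macrophages and granulocytes.

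Signals below are log2 values after background correction and quantile normalization of the 6 brain arrays, and differences are congenic minus B6 in log2 units, so that 1 unit is a 2-fold difference. Congenic values are listed for replicates 1, 3 and 4, and B6 values for replicates 1, 2 and 3. In each bulk sample, fewer cells of a type and less RNA per cell cannot be told apart. The p-values measure the spread between these arrays, whose small number limits precision.

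The arrays did not split cleanly by strain. Between 15843 and 17353 probes were detected per congenic array and between 17049 and 17925 per B6 array. Each congenic array had a higher mean r across tested probes with the B6 arrays, at 0.952 to 0.972, than with the remaining congenic arrays, at 0.948 to 0.952, and the gap was widest for replicate 4. Another congenic brain array, replicate 2, is outside the named triplicate and was used only as a check, because its code differs from that of replicate 4 in its last letter alone. Of 11 neuron markers on the array, 10 were tested and were detected on all 6 arrays, while Snap25 was detected on too few to be tested. Congenic replicate 3 and B6 replicate 2 stood apart for the pituitary hormone genes: Gh was at 10.07, 14.54 and 11.11 in the congenic, against 10.97, 14.52 and 11.55 in B6. Whether unequal amounts of pituitary or other neighbouring tissue bear on the strain differences was not tested.

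No brain transcript passed the test. Limma called 0 of 16908 probes (0.0%) at an adjusted p under 0.05, and the lowest adjusted p was 0.336. At an unadjusted p under 0.05 limma counted 1632 probes (9.65%), of which 911 were lower (5.39%) and 721 higher (4.26%) in the congenic. The same count in liver was 3.27% of tested probes, in gonadal fat 3.46% and in gastrocnemius 2.81%, where limma also called 0. With any single brain array left out, the brain share ran from 3.51% (without B6 replicate 1) to 19.1% (without congenic replicate 4). The other tissues were not tested this way, so the brain share depends on single arrays and is not a measure of a larger strain difference. The 3 congenic values lay wholly above or wholly below the 3 B6 values for 2608 probes (15.4%), with 6.54% of probes above and 8.89% below. Over all genes 4826 of 8799 (54.8%) had the lower mean in the congenic, with a median difference of -0.03. Over probes that share was 54.6%, against 65.4% when the arrays were centred on their medians, so small shifts of large gene groups depend on the scaling.

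The 30 genes of smallest p, with 16 lower and 14 higher in the congenic, are described below as values without a call. Of these, 20 were detected on all 6 arrays, and 16 differed by 2-fold or more, where 2.35% of all genes did. For all 30 the strains did not overlap, which held for 16.1% of all genes (7.39% higher, 8.74% lower) and follows in part from the choice by small p. In 21 of the 30, congenic replicate 4 was the congenic array nearest to B6. An unadjusted p under 0.01 was reached by 161 genes (1.83%). The ranking covers named genes only: of the 30 probes of smallest p, 16 had no single gene name and are not described.

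**Figure D1:**
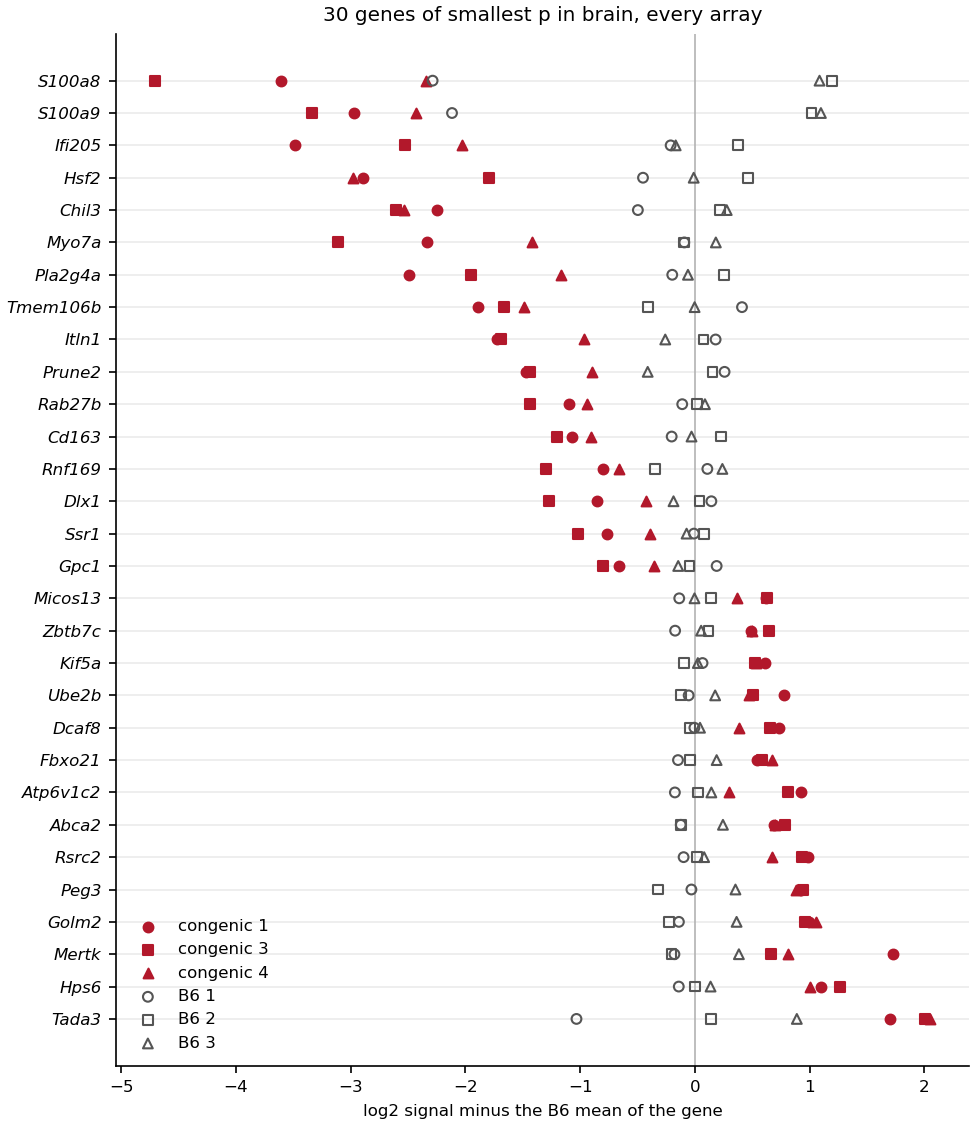
Log2 signal on each brain array minus the B6 mean of the gene, for the 30 genes of smallest p, ordered by their difference. Filled red marks are the 3 congenic arrays and open grey marks the 3 B6 arrays; each gene's congenic marks lie on 1 side of its B6 marks, narrowly for S100a8 and S100a9, where B6 replicate 1 lies next to the congenic arrays.

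Pla2g4a, a lipid signalling gene, had the smallest p of all named genes tested. It encodes cytosolic phospholipase A2, which frees arachidonic acid from membrane phospholipids as the first step to prostaglandins and leukotrienes. Pla2g4a had log2 signals of 11.06, 11.60 and 12.39 in congenic brain, against 13.36, 13.81 and 13.50 in B6 brain. All congenic arrays lay below all B6 arrays, and the difference was -1.87 ± 0.29 (SE), a 3.65-fold lower mean (limma, adjusted p = 0.336). Without congenic replicate 4 it was -2.22 and passed the test (limma, adjusted p = 0.0292), which it did not without any other single array. Leaving out replicate 4 also raised the share of all probes at an unadjusted limma p under 0.05 from 9.65% to 19.1%. Of 15 tested genes of the phospholipase A2 and eicosanoid list, 11 were lower in the congenic, with a list median of -0.33 beside -0.03 over all genes. Several of them passed the filter mainly through B6: of the 8 detected on all 6 arrays 5 were lower, with a median of -0.09, and without congenic replicate 1 the list median was -0.18. Hpgd, which inactivates prostaglandins, had 10.40, 9.69 and 11.38 in the congenic, against 11.56, 11.79 and 11.66 in B6. That difference was -1.18 ± 0.39 without overlap. Ptger3, a receptor for prostaglandin E2, differed by -1.04 ± 0.55, with 1 congenic array and all B6 arrays above detection. Alox5ap, the protein that presents arachidonic acid to 5-lipoxygenase, differed by -0.63 ± 0.25. Ptgds, the abundant prostaglandin D synthase of the meninges and choroid plexus, was level between strains at 0.01 ± 0.19. In all, 6 of the 15 did not overlap, 5 of them lower, where 16.1% of all genes did not overlap and 8.74% were lower without overlap.

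S100a8 and S100a9 are the 2 subunits of calprotectin, a calcium-binding protein stored in neutrophils. S100a8 had 9.20, 8.10 and 10.47 in the congenic, against 10.52, 14.01 and 13.90 in B6, a difference of -3.55 ± 0.82. S100a9 had 11.83, 11.46 and 12.37 in the congenic, against 12.68, 15.82 and 15.90 in B6, a difference of -2.91 ± 0.65. B6 replicate 1 lay just above congenic replicate 4 for both genes, more than 3 log2 units below the other B6 arrays. Retnlg, a secreted protein of neutrophils and bone marrow, had 11.42, 8.02 and 9.09 in the congenic, against 10.87, 13.25 and 13.27 in B6, so that the strains overlapped. Its difference was -2.95 ± 0.79. Camp, the cathelicidin of neutrophil granules, had 8.67, 9.73 and 9.47 in the congenic, against 9.35, 12.01 and 12.15 in B6. The B6 arrays alone detected it. Mpo, the peroxidase of neutrophil granules, differed by -1.58 ± 0.64, and Ngp, another granule protein, by -1.68 ± 1.10 with 2 arrays of each strain detected.

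By array, the granulocyte list was high on B6 replicates 2 and 3 and low on the other 4 arrays. Of its 16 genes, 14 are on the array and 8 were tested. Of these, 7 were lower in the congenic and 5 reached an unadjusted p under 0.05 in limma, with a list median of -1.78, where 5.17% of all genes were lower and 4.3% higher at that p. The list's mean deviation from the 6-array mean was -0.39, -1.48 and -0.91 in the congenic, against -0.63, 1.67 and 1.74 in B6. Camp, Retnlg and Mpo passed the filter mainly through B6, and the 3 list members detected on all 6 arrays had a median of -0.51, with 1 at p under 0.05. Without B6 replicate 3 the list median was -1.17. Without B6 replicate 1 it was -3.14, and both calprotectin genes passed in limma, with a difference of -4.67 for S100a8 (adjusted p = 0.0154) and of -3.96 for S100a9 (adjusted p = 5.44e-05). Ltf, Elane, Lcn2, Mmp8 and Mmp9, other neutrophil genes, were not tested because too few arrays detected them, and Csf3r, the receptor for granulocyte colony-stimulating factor, went the other way at 0.23 ± 0.18. The share of blood or granulocytes in each brain sample was not measured. The erythroid genes followed another order: Hba-a1, an alpha globin, was at 19.07, 18.77 and 20.05 in the congenic, against 18.15, 18.36 and 19.61 in B6.

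The promoters of the 5 granulocyte genes at p under 0.05 are shown because these genes were all highest on B6 replicates 2 and 3. Each run is the 250 bases before the start of the gene, 5′ to 3′ on the gene's strand, from RefSeq on GRCm38.p6. The windows are chr3:90668821-90669070 on the plus strand for S100a8, chr3:90695722-90695971 on the minus strand for S100a9, chr16:48872358-48872607 on the plus strand for Retnlg, chr9:109849457-109849706 on the minus strand for Camp and chr11:87793534-87793783 on the plus strand for Mpo. Capitals mark 3 motifs searched on both strands: GAGGAA, a core bound by the myeloid factor PU.1, TTGCNNAA, a core bound by C/EBP factors, and TATAAA, the TATA box. In S100a8 a GAGGAA match on the opposite strand adjoins the TATAAA match without overlapping it.
S100a8: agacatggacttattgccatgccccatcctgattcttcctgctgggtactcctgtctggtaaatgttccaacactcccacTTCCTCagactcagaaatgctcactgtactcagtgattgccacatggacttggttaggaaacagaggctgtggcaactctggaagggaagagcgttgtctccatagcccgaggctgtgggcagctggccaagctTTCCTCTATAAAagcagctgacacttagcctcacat
S100a9: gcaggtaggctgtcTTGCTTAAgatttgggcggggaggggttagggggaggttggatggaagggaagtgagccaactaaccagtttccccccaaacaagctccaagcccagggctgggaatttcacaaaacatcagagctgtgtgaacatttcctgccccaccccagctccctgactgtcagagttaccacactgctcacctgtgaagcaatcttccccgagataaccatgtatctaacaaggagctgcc
Retnlg: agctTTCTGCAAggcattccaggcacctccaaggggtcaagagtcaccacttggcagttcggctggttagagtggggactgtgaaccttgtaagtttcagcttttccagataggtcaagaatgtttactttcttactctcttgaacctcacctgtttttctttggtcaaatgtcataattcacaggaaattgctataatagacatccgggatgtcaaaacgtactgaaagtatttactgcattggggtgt
Camp: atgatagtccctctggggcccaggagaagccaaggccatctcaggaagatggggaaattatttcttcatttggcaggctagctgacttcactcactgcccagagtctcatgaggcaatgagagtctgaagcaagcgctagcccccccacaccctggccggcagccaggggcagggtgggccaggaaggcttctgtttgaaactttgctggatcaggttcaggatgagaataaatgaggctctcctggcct
Mpo: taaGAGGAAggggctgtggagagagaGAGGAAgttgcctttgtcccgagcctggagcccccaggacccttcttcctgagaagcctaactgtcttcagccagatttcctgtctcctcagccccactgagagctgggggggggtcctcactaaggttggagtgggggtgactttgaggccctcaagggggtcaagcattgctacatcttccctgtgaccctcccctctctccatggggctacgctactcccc
The S100a8 window holds 2 GAGGAA matches and 1 TATAAA match, and the Mpo window 2 GAGGAA matches. The S100a9 and Retnlg windows hold 1 TTGCNNAA match each, that of Retnlg on the opposite strand, and the Camp window holds no match of these 3 motifs. Of 32851 mouse promoter windows of this length, 23.3% hold GAGGAA, 9.56% hold TTGCNNAA and 12.4% hold TATAAA.

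Macrophage genes were lower in the congenic as well, with no overlap for 2 of the 3 tested markers, where 8.74% of all genes were lower without overlap. Cd163, the haemoglobin scavenger receptor of perivascular and meningeal macrophages, had 10.83, 10.70 and 11 in the congenic, against 11.70, 12.13 and 11.87 in B6. The difference was -1.06 ± 0.26, and B6 replicate 1 here lay with the other B6 arrays, unlike in the granulocyte genes. Mrc1, the mannose receptor of the same macrophages, differed by -0.89 ± 0.42 without overlap. Pf4, a chemokine of platelets and of these macrophages, had 11.35, 8.56 and 11.08 in the congenic, against 11.24, 11.74 and 11.96 in B6. Its difference was -1.32 ± 0.60, with congenic replicate 3 far below the other arrays. All 3 tested genes of the perivascular macrophage list were lower, with a median of -1.06, and the median lay between -1.15 and -0.94 when any single array was left out. Of the 3, Mrc1 alone was detected on all 6 arrays. Lyve1, Cbr2 and F13a1 of that list were detected on too few arrays.

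Chil3 and Retnla, secreted products of macrophages and of some granulocytes, were below detection in the congenic. Chil3, a chitinase-like lectin, had 8.19, 7.83 and 7.90 in the congenic, against 9.94, 10.66 and 10.72 in B6. No congenic array and every B6 array detected it, and it was at least 5.50-fold lower in the congenic. For such a bound, a signal of the undetected strain under the dimmest detected probe of its array was raised to that probe's level before the means were compared, and the bound carries the error of the fit. For Chil3, Camp, Hsf2, Tmem106b and Sh3bp2, and below for Ucp3 and for Myo7a in gastrocnemius, no signal was raised enough to matter. Their figure is the fold of the measured means, with the congenic mean not above background. The same holds below for Ptpru and P2ry14, with the B6 mean not above background. Retnla, a resistin-like protein, had 7.71, 7.70 and 8.55 in the congenic, against 10.63, 10.17 and 9.83 in B6, at least 4.65-fold lower. On the check array, congenic replicate 2, Retnla was detected at 9.53 and Chil3 was not, at 8.87.

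Genes of microglia, the resident macrophages of the brain, were split. Of 9 tested, 5 were lower and 4 higher, with a median of -0.29, but of the 7 detected on all 6 arrays 3 were lower and 4 higher, with a median of 0.04. The list median was also nearer 0 without congenic replicate 4, at -0.12, and without B6 replicates 1, 2 or 3, at -0.15, -0.10 and -0.18. Siglech, a lectin of microglia, had 12.33, 11.91 and 12.67 in the congenic, against 12.94, 12.78 and 12.81 in B6, a difference of -0.54 ± 0.22 without overlap. Tmem119, a microglial membrane protein, differed by -0.30 ± 0.16, and Trem2, a lipid-sensing receptor, by 0.04 ± 0.27. No T or B lymphocyte gene of the 8 on the array was detected on enough arrays to be tested.

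Meningeal fibroblast genes were lower in 7 of 9 tested cases, with a median of -0.62. Col1a1, a chain of type I collagen, had 10.71, 10.27 and 11.29 in the congenic, against 10.82, 12.53 and 12.42 in B6, a difference of -1.17 ± 0.44. Col1a2, its partner chain, differed by -0.62 ± 0.25 and Dcn, the proteoglycan decorin, by -0.54 ± 0.25. None of the 9 separated the strains, and the list median was -0.37 without congenic replicate 1 and -0.08 without B6 replicate 2, the array highest for this list. In the choroid plexus list 8 of 9 genes were lower, with a median of -0.20. With congenic replicates 1 or 4 left out it became -0.10 and -0.51, and with B6 replicates 2 or 3 left out -0.32 and -0.34. Kcne2 and Aqp1, a potassium channel subunit and a water channel of the choroid plexus, differed by -0.93 ± 0.31 and -0.82 ± 0.31, while Ttr, its main secreted protein, differed by -0.12 ± 0.16.

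**Figure D2:**
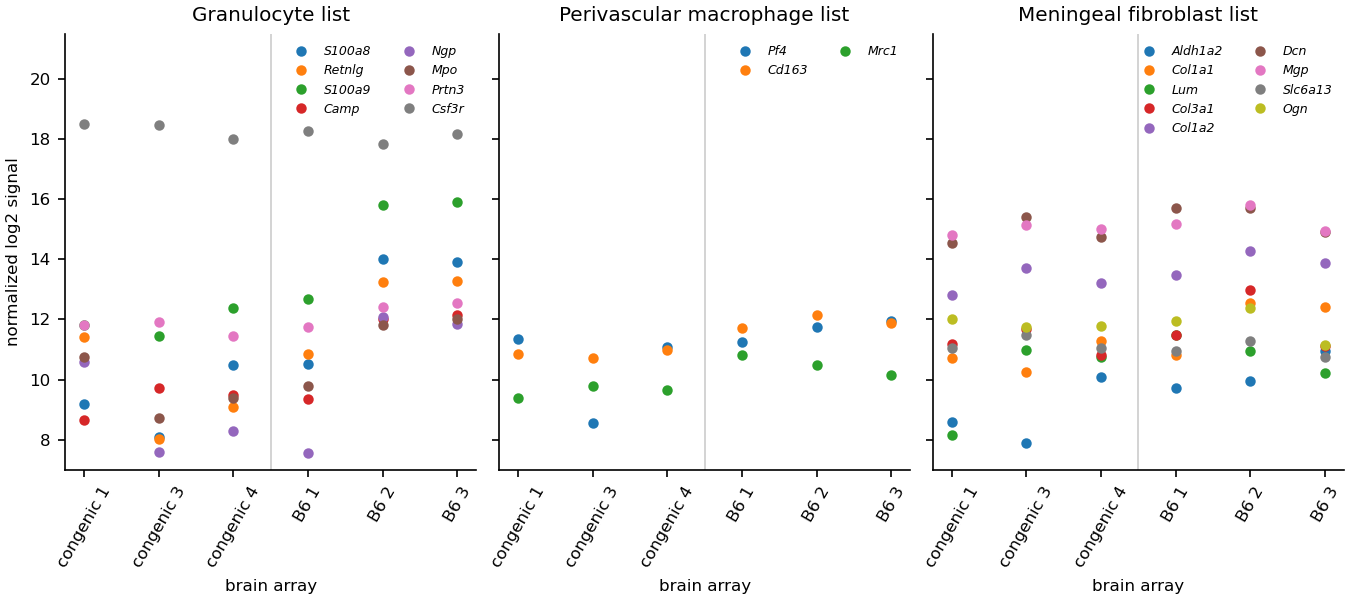
Normalized log2 signal of every tested gene of the granulocyte, perivascular macrophage and meningeal fibroblast lists on each brain array, with congenic arrays left of the grey line and B6 arrays right of it. Most granulocyte genes are high only on B6 replicates 2 and 3, whereas Cd163 is higher on all 3 B6 arrays than on all 3 congenic arrays.

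The S100 list, which includes S100a8 and S100a9, had 9 of 9 tested genes lower, with a median of -0.31, and -0.15 with 8 of 9 lower without B6 replicate 2. Without congenic replicate 3, 7 of 9 were lower, with a median of -0.32. The 7 detected on all 6 arrays were all lower, with a median of -0.18. Beside the calprotectin pair, S100a6, or calcyclin, of astrocytes and fibroblasts, had 14.02, 13.67 and 13.84 in the congenic, against 14.21, 14.28 and 14.26 in B6, a difference of -0.40 ± 0.15 without overlap. S100a1 differed by -0.01 ± 0.14.

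**Figure D3:**
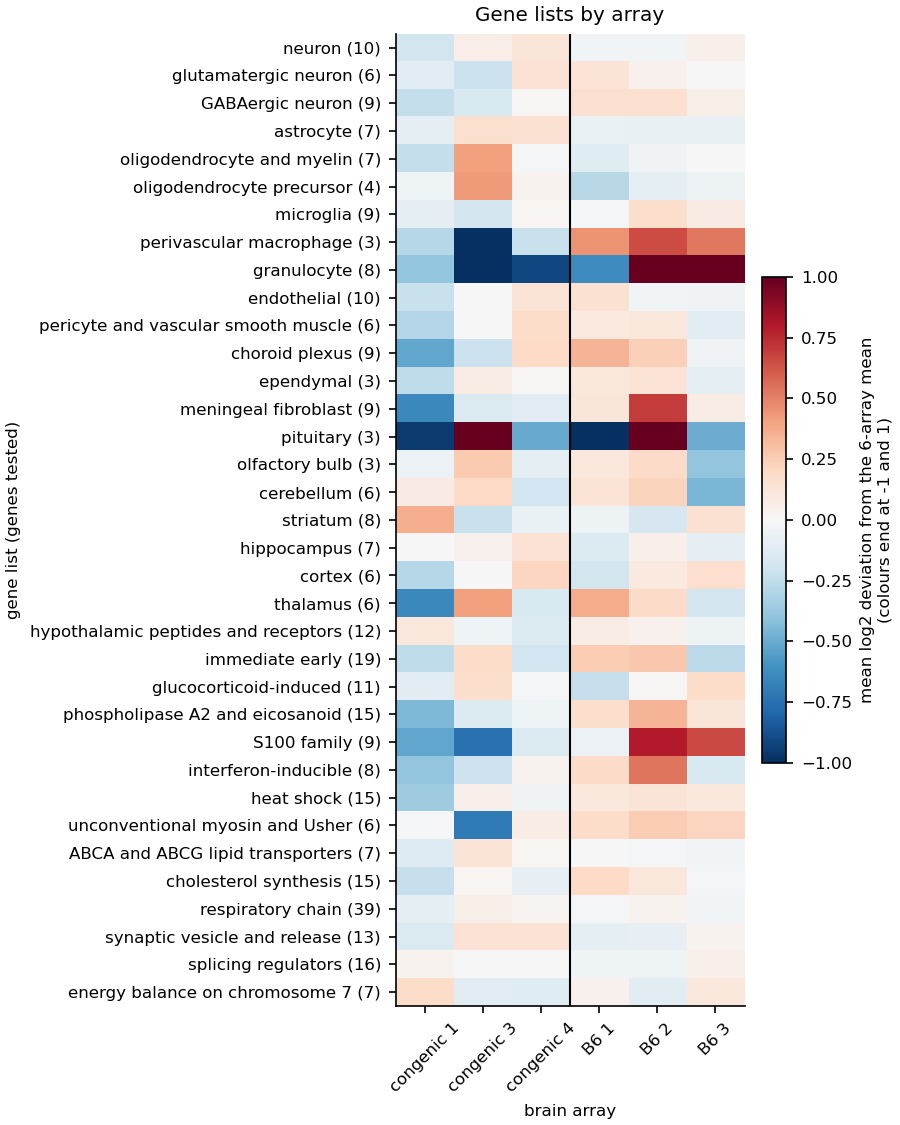
Mean log2 deviation of each gene list from its 6-array mean on each brain array, with congenic arrays left of the black line and B6 arrays right of it, and the number of tested genes in brackets. Red is higher and blue lower, and colours end at -1 and 1. The granulocyte row is blue on B6 replicate 1, the pituitary row is red on 1 array of each strain, and the neuron, respiratory chain and splicing rows are pale on all arrays.

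Itln1 and Ifi205 were the other defence-related genes of large difference. Itln1, intelectin, a secreted lectin that binds microbial sugars, had 11.43, 11.46 and 12.18 in the congenic, against 13.33, 13.23 and 12.89 in B6. The strains did not overlap, and the difference was -1.46 ± 0.25 (limma, adjusted p = 0.336). Ifi205, an interferon-inducible DNA-sensing protein of the p200 family, had 7.66, 8.62 and 9.12 in the congenic, against 10.94, 11.53 and 10.98 in B6. Only the B6 arrays detected it, all 3 of them, and it was at least 6.40-fold lower. The interferon-inducible list as a whole had 5 of 8 tested genes lower, with a median of -0.17. The median was -0.36 without congenic replicate 4, -0.07 without B6 replicate 1 and -0.45 without B6 replicate 3. Isg15, an interferon-induced ubiquitin-like protein, differed by -0.45 ± 0.30, and Gbp3, a guanylate-binding protein, by -0.61 ± 0.40. Gbp2, of the same family, went the other way at 0.56 ± 0.60.

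Hsf2 was the one heat shock gene among the 30. It encodes a transcription factor of development and proteotoxic stress. It had 7.81, 8.91 and 7.73 in the congenic, against 10.26, 11.17 and 10.70 in B6. No congenic array detected it, all B6 arrays did, and it was at least 5.88-fold lower. On congenic replicate 2 it was detected, at 9.94, below the lowest B6 value of 10.27 in the joint normalization. Chaperone genes were split: of 15 heat shock genes, 10 were lower and 5 higher, with a median of -0.07, which ran from -0.14 without congenic replicate 3 to 0.02 without congenic replicate 1. Hsph1, a large chaperone of the HSP110 family, was 15.56, 15.04 and 15.40 in the congenic, against 14.85, 14.72 and 14.99 in B6, a difference of 0.48 ± 0.16 without overlap. Hspd1, the mitochondrial chaperonin, differed by -0.04 ± 0.14.

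Several genes of neurons and synapses separated the strains in both directions. Dlx1, a homeobox factor of forebrain GABA interneurons, had 13.22, 12.80 and 13.65 in the congenic, against 14.22, 14.11 and 13.89 in B6, a difference of -0.85 ± 0.21. In the GABAergic list 8 of 9 genes were lower, with a median of -0.13, and 3 were lower without overlap, where 8.74% of all genes were. The median was -0.27 without congenic replicate 3, -0.07 without B6 replicate 1 and -0.22 without B6 replicate 3. The interneuron peptides Sst and Vip differed by -0.43 ± 0.15 and -0.42 ± 0.17, while Gad1, which makes GABA, differed by -0.02 ± 0.15. Bdnf, a neurotrophin, had 10.59, 9.39 and 11.09 in the congenic, against 11.75, 11.60 and 11.46 in B6, a difference of -1.24 ± 0.41. Oxt, the hypothalamic peptide oxytocin, had 15.87, 15.72 and 15.23 in the congenic, against 14.94, 15.08 and 15.35 in B6. Its difference was 0.48 ± 0.18, with congenic replicate 4 inside the B6 range.

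Vesicle and transport genes were among those higher in the congenic. Kif5a, a neuronal kinesin motor, had 14.28, 14.20 and 14.21 in the congenic, against 13.74, 13.58 and 13.70 in B6, a difference of 0.56 ± 0.14. The synaptic vesicle proteins Syp and Syn2 each differed by 0.47, and Pclo, a scaffold of the release site, by 0.77 ± 0.32. The synaptic list had 7 genes higher and 6 lower, with a median of 0.02, against 3 higher and 10 lower with median centring. Rab27b, a GTPase of vesicle exocytosis, went the other way at 10.74, 10.41 and 10.90 in the congenic, against 11.73, 11.86 and 11.93 in B6, a difference of -1.16 ± 0.27. Gpc1, a heparan sulfate proteoglycan of neurons, differed by -0.60 ± 0.16, Prune2 by -1.27 ± 0.32, and Tmem106b, a lysosomal membrane protein that no congenic array detected, was at least 3.21-fold lower.

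Immediate early genes, which neurons switch on with activity, were lower in 15 of 19 cases, with a median of -0.18. It was -0.28 without congenic replicate 3, -0.10 without B6 replicate 1 and -0.38 without B6 replicate 3. Fos had 11.34, 13.61 and 12.75 in the congenic, against 14.24, 14.32 and 12.82 in B6, a difference of -1.23 ± 0.50 with overlap. Egr1, an activity-induced zinc finger factor, differed by -0.47 ± 0.17 without overlap. Fosb, a Fos family member, went the other way at 10.82, 10.95 and 10.58 in the congenic, against 9.79, 9.86 and 10.04 in B6, a difference of 0.89 ± 0.36. By array, the list was as low on B6 replicate 3, at a mean deviation of -0.27, as on congenic replicates 1 and 4, at -0.25 and -0.19, and congenic replicate 3 was at 0.18.

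The genes higher in the congenic mostly differed by under 1 log2 unit. Rsrc2, a nuclear protein rich in arginine and serine, had 14.31, 14.25 and 13.99 in the congenic, against 13.22, 13.34 and 13.40 in B6, a difference of 0.87 ± 0.16. Abca2, a lipid transporter abundant in oligodendrocytes, had 14.91, 15.02 and 14.93 in the congenic, against 14.10, 14.11 and 14.47 in B6, a difference of 0.73 ± 0.15. Their strains did not overlap. Ube2b, a ubiquitin-conjugating enzyme, differed by 0.59 ± 0.15, Fbxo21, a substrate receptor of a ubiquitin ligase, by 0.60 ± 0.16, and Dcaf8, a substrate receptor of CUL4 ligases, by 0.59 ± 0.16. Micos13, which shapes the cristae of mitochondria, differed by 0.54 ± 0.14, Zbtb7c, a zinc finger protein, by 0.54 ± 0.14, and Atp6v1c2, a subunit of the vacuolar proton pump, by 0.68 ± 0.17. Hps6, needed to form lysosome-related organelles, differed by 1.12 ± 0.28, and Golm2, a Golgi membrane protein, by 1.00 ± 0.25, with a second Golm2 probe at 0.66 ± 0.44. Tada3, an adaptor of histone acetyltransferase complexes, differed by 1.92 ± 0.46 but was detected on 2 congenic arrays and 1 B6 array. Mertk, a receptor for engulfing dead cells, had log2 signals of 19.69, 18.63 and 18.78 in the congenic, against 17.78, 17.76 and 18.35 in B6. Its signal to noise ratio was only 2.5 to 5.1 on these arrays, although it lay among the brightest probes. Ssr1, a subunit of the translocon-associated complex of the endoplasmic reticulum, was lower instead, at -0.73 ± 0.17.

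Splicing regulators, taken as a list because of Rsrc2, did not share a direction. Of 16 tested, 9 were higher and 7 lower, with a median of 0.04, and with median centring 4 were higher and 12 lower. Srsf1, a core splicing factor, differed by 0.54 ± 0.23, and Srrm2 and Srrm1, scaffold proteins of the spliceosome, by -0.52 ± 0.16 and -0.41 ± 0.18. The other ABCA and ABCG lipid transporters were split: of 7 tested, 3 were higher and 4 lower. Abcg1, a cholesterol exporter, differed by -0.36 ± 0.20.

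Metabolic lists had small medians. Cholesterol synthesis genes were lower in 14 of 15 cases, with a median of -0.20, led by Hsd17b7 at -0.46 ± 0.19 and Sc5d at -0.33 ± 0.15, both enzymes late in the pathway. The list was lower in 11 to 15 of the 15 when any single array was left out, with medians from -0.11 without congenic replicate 1 to -0.32 without B6 replicate 3. Respiratory chain subunits were higher in 22 of 39 cases, with a median of 0.01, against 10 of 39 with median centring, so no direction holds for them. Ndufs8, a subunit of complex I, differed by 0.44 ± 0.15. Myelin genes were split, with Cnp, a myelin enzyme, at 0.55 ± 0.25 and Aspa, which breaks down N-acetylaspartate in oligodendrocytes, at -0.48 ± 0.20. Pdgfra, the growth factor receptor of oligodendrocyte precursors, had 10.19, 10.85 and 10.66 in the congenic, against 9.24, 9.26 and 9.57 in B6, and only the congenic arrays detected it. The 4 tested precursor genes did not share a direction: 2 were higher and 2 lower, with a median of 0.18. Of the 3 detected on all 6 arrays, 1 was higher and 2 lower, with a median of -0.04. Cspg4, a proteoglycan of those cells, differed by -0.44 ± 0.24 and Olig1 by -0.04 ± 0.25.

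Detection itself was unequal. Of tested probes, 29 (0.172%) were detected on every congenic array and no B6 array, and 135 (0.798%) on no congenic array and every B6 array. Fewer probes were detected on 2 of the 3 congenic arrays, and the part of this in the split was not tested. Named genes not detected in the congenic include Sema4b, a semaphorin, at least 3.81-fold lower, and Sh3bp2, an adaptor of immune signalling. Sh3bp2 had 8.28, 8.19 and 8.38 in the congenic, against 10.20, 10.12 and 10.11 in B6, with little spread in either strain. Those not detected in B6 include Mgat5b, a brain glycosyltransferase, with 11.18, 11.34 and 10.83 in the congenic, against 9.90, 9.44 and 10.06 in B6. Ptpru, a receptor phosphatase, and P2ry14, a receptor for UDP-sugars, were at least 2.56-fold and 2.75-fold higher.

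Chromosome 7, which carries the marker, had no more genes of small p than the rest of the genome. Of its 687 tested genes, 64 (9.32%) reached an unadjusted p under 0.05 in limma, against 768 of 8108 (9.47%) on the other chromosomes. The strains did not overlap for 120 of them (17.5%), against 16% elsewhere, and the median difference was -0.02, against -0.04 elsewhere. The 3 chromosome 7 genes among the 30 were Myo7a, Rnf169 and Peg3.

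Myo7a, an unconventional myosin of sensory hair cells and retina, had 9.55, 8.77 and 10.47 in the congenic, against 11.79, 11.79 and 12.07 in B6. All congenic arrays lay below all B6 arrays, and the difference was -2.29 ± 0.42, with 1 congenic array and all B6 arrays above detection. Rnf169, a ring finger protein recruited to DNA breaks, had 13.46, 12.97 and 13.61 in the congenic, against 14.37, 13.91 and 14.50 in B6, a difference of -0.92 ± 0.21. These genes lie at places 425 and 433 of the 687 in order along the chromosome. Slco2b1, an organic anion transporter next to Rnf169 among the tested genes, had 11.76, 11.22 and 12 in the congenic, against 12.62, 12.48 and 12.32 in B6, a difference of -0.81 ± 0.25. Nearest to Myo7a, Aqp11, a channel of intracellular membranes, differed by -0.35 ± 0.16 without overlap, and Acer3, a ceramidase, by -1.0 ± 0.72 with overlap. On the other side of Rnf169, Pgm2l1 and Ppme1 were higher in the congenic, by 0.20 ± 0.13 and 0.21 ± 0.14, without overlap. Ucp3, an uncoupling protein typical of muscle, was not detected on the congenic arrays but was on all B6 arrays, and was at least 1.85-fold lower. Its difference was -0.89 ± 0.41, and the strains overlapped. In runs of 50 tested genes, the run from Ctsc to Rnf121, which holds these genes, had the most at p under 0.05, with 9 of 50, and a median difference of -0.18. The other full runs held 2 to 7. In the same run, at place 418, lies a gene that was higher in the congenic. This gene, Thrsp, a regulator of fatty acid synthesis, had 15.19, 14.67 and 14.88 in the congenic, against 14.02, 14.54 and 14.35 in B6, a difference of 0.61 ± 0.18.

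Elsewhere on chromosome 7, Peg3, an imprinted zinc finger gene expressed from the paternal copy, had 12.70, 12.72 and 12.65 in the congenic, against 11.74, 11.45 and 12.13 in B6. Its strains did not overlap, with a difference of 0.92 ± 0.22, and congenic replicate 2 was at 12.28. Mboat7, an acyltransferase that puts arachidonic acid into phosphatidylinositol, differed by 0.45 ± 0.14, Brsk1, a kinase of neuronal polarity, by 0.52 ± 0.16, and Lrrc4b, a synaptic adhesion protein, by 0.45 ± 0.15. Emp3, a membrane protein, differed by -1.17 ± 0.38 and Kctd15 by -0.58 ± 0.18. Dennd5a, a regulator of Rab GTPases, differed by 0.43 ± 0.13. In all, 12 genes of the chromosome (1.75%) were at p under 0.01, 6 higher and 6 lower.

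**Figure D4:**
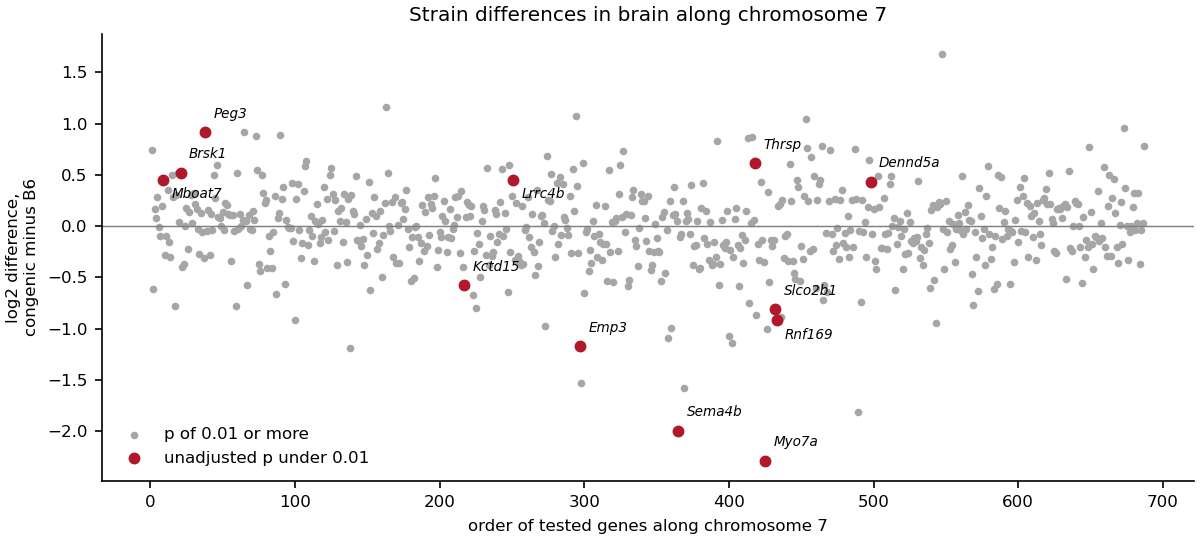
Strain difference in brain, congenic minus B6 in log2 units, for the 687 tested genes of chromosome 7 in their order along it. Red points are the 12 genes with an unadjusted limma p under 0.01, with Myo7a at -2.29, and grey points the others.

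Outside brain, the 30 genes had the brain's direction in 50% to 65.2% of tested cases. Of the 30 genes, 20, 24 and 23 were tested in liver, gonadal fat and gastrocnemius, and 10, 12 and 15 had the brain's direction there. Those shares stand beside 47.1%, 50% and 48.7% of all genes tested in both tissues. In liver Pla2g4a differed by 1.26 ± 0.54, in gonadal fat by 0.75 ± 0.51 and in gastrocnemius by -0.02 ± 0.38. Cd163 was higher in the congenic in all 3, at 0.73 ± 0.33, 0.75 ± 0.32 and 0.47 ± 0.38. Rnf169 differed by less than 1 SE in each of the 3. Myo7a was at least 3.53-fold lower in gastrocnemius, where the B6 arrays alone detected it, but differed by -0.23 ± 0.36 in liver and 0.01 ± 0.36 in gonadal fat. Ssr1, Ube2b and Micos13 alone had the brain's direction in all 3, of 19 genes tested in all of them.

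The difference between tissues was tested in a limma fit of 24 arrays, as the brain strain difference minus the mean of the others. It called 1 of 14781 probes (0.00677%), Ifi205, at -2.90 ± 0.47 (limma, adjusted p = 0.0366). Its congenic brain signals were not above background, so this value and its SE rest on unmeasured levels there, as do those of Retnla and Hsf2 below. In liver Ifi205 differed by 0.16 ± 0.34, in gonadal fat by 0.53 ± 0.36 and in gastrocnemius by -0.08 ± 0.39, and it was detected on all 18 arrays of those tissues. The call did not hold when 1 brain array was left out, except without congenic replicate 4 (limma, adjusted p = 0.0209), and the other 5 gave adjusted p from 0.117 to 0.385. The next genes by p were Retnla at -2.94 ± 0.55, Mnd1, a meiotic recombination protein, at -2.32 ± 0.47 and Cd163 at -1.70 ± 0.39. Pla2g4a, Hsf2, Retnlg and S100a8 followed, at -2.56 ± 0.61, -2.61 ± 0.64, -3.53 ± 0.87 and -3.98 ± 1.03, and none of these passed the test. Too few arrays detected Hsf2 in gonadal fat, Retnlg in liver and S100a8 in both. Their values rest in part on undetected signals there too.

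**Figure D5:**
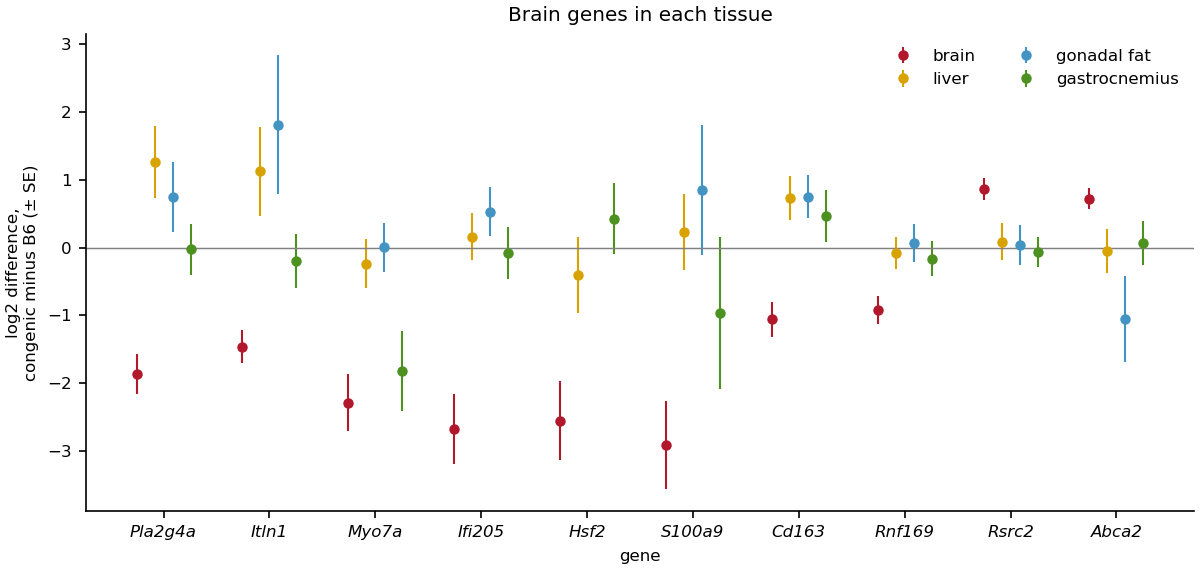
Strain difference, congenic minus B6 in log2 units with its SE (n = 3 arrays a strain), in brain, liver, gonadal fat and gastrocnemius for 10 brain genes. Points are missing where a gene was not tested in a tissue, and congenic signals were not above background for Ifi205 and Hsf2 in brain and for Myo7a in gastrocnemius. The SE bars of the brain points, in red, do not meet those of other tissues, except for Myo7a, which was also lower in congenic gastrocnemius. These genes were among those of smallest p in brain, so such gaps follow in part from the choice and are not a test. The contrast of tissues called only Ifi205 among them.

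The check array gives a further congenic value for each gene, with the limits that it shares the B6 arrays with the main comparison and may share an animal with congenic replicate 4. Normalized together with the others, congenic replicate 2 had Pla2g4a at 12.13, against a B6 range of 13.39 to 13.84. Itln1 was at 11.12 on it, against 12.92 to 13.36 in B6, and Myo7a at 10.09, against 11.81 to 12.09. Rsrc2 was at 14.20, against 13.25 to 13.43 in B6, and Kif5a at 14.65, against 13.60 to 13.76. For these genes replicate 2 lay on the congenic side, clear of the B6 arrays. Such a place was common: replicate 2 lay beyond the B6 range, on the side of the main difference, for 47.5% of all genes tested. Among all genes without overlap the share was 74.3%. S100a9 was at 12.69 on it and Cd163 at 11.63, just below the lowest B6 values of 12.71 and 11.72, and Abca2 at 14.59 was just above the highest, 14.50. With replicate 2 in place of replicate 4, limma called 3 probes, among them Itln1 at -1.83 (adjusted p = 0.0265) and Pla2g4a at -1.97 (adjusted p = 0.0408). In that setting 16.8% of all probes reached an unadjusted limma p under 0.05, against 9.65% in the main one.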

How the data were processed

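Total RNA was extracted with TRIzol and amplified to digoxigenin-labelled cRNA, per the labels' protocols. The deposited array tables hold, per the file headers, a Signal column, which is an intensity on a linear scale, and a signal to noise score for each of 32996 probes. Which array software made the Signal values is not given in the sources used here, and the flag column was not used. The deposited series matrix holds log2 values, equal to log2 of the Signal plus a constant for each array, and blank where the signal to noise score is below 3. It served as an alternative.

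With R 4.3.3 and limma 3.58.1, Signal was corrected by normexp with an offset of 50, put on the log2 scale and quantile normalized among the 6 brain arrays. lmFit compared the strains, eBayes moderated the variances with a trend on signal, and Benjamini-Hochberg adjusted p over all tested probes was held to 0.05. The contrast of brain with the other tissues came from 24 arrays with the number in the titles as a random block (correlation -0.1055). It took probes that passed the filter in brain and in any other tissue, not in all of them. Each brain array counted as an animal of its own. An exact permutation test of 3 against 3 arrays cannot go below a two-sided p of 0.1, so none was used.

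Genes were named through the platform annotation: 14401 probes had 1 gene, 247 several and 18348 none here. Of these, 14392 matched the GRCm38.p6 gene table, which gave symbols, chromosomes and gene order. Probe coordinates are left out, since no build is stated for the array. Each gene is shown by its tested probe of highest mean signal. Named are the 30 genes of smallest p, up to 3 members of largest difference in each list with further members chosen after their values were seen, chromosome 7 genes at p under 0.01, the neighbours of Myo7a and Rnf169, genes detected in 1 strain only, and the genes of smallest p in the contrast of tissues. The genes and lists were chosen with earlier results of these data known, so they are not independent evidence. On data simulated from the brain means and spreads, the test found 72% of the probes given a difference of 2 log2 units and 50% of those given 1. There 50 probes were changed at each of 1, 2, 3 and 4 log2 units, and the adjusted threshold eases as more probes pass. These shares therefore do not give what the test could find in brain, where it called 0. Alternatives changed the background correction, normalization, filter, array weights, replicate block and the arrays used.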

Additional observations from a re-analysis of the deposited data

Results flagged for a closer look

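Of the 30 named genes, 1 had a congenic array far from the others of its group. Peg3 was at 12.28 on congenic replicate 2, while the other 3 congenic arrays lay between 12.65 and 12.72 in the fit without it. The gap was 0.848 of the range of the 4 arrays, a gap that chance exceeds in about 1 in 20 groups. Ifi205 differed between tissues in its strain difference, at -2.90 for brain minus the mean of the other tissues, by the contrast in the limma fit of 24 arrays, with congenic brain signals not above background.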

How the results depend on the processing

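The 30 named genes kept their direction in all 481 recomputed values, and 6 of these passed the test. These genes were chosen by small p in the same arrays, and their strains did not overlap. Their directions could therefore hardly reverse, and the count is no further evidence for them. Settings in which a gene's probe was not tested gave no value. Probes called numbered 0 with no background correction, median centring, the deposited series matrix, all 6 arrays detected, no filter, no intensity trend, array weights and congenic replicate 2 added. Limma called 3 with replicate 2 in place of replicate 4 and 1 with these averaged (Itln1, adjusted p = 0.0385). Leaving out each array gave 0 to 2 called probes: 2 without congenic replicate 4, 2 without B6 replicate 1 and 0 without any other. Non-overlapping probes numbered 2608 in the main setting (15.4%), 4301 without a filter (13%), 3990 with replicate 2 in place of 4 (23.5%) and 1951 with it added (11.1%). With 1 array fewer they numbered from 3183 (19.7%) to 6049 (37.2%, without congenic replicate 4), where a split of 5 arrays separates more easily. With the replicate block on the code number, where the numbers 1 and 5 recur in both strains, limma called 0 (lowest adjusted p = 0.275). The deviations of those pairs correlated at 0.006 and 0.066, and nothing in the labels pairs the animals, so the samples may share a number only. The contrast of brain with the other tissues called 0 when detection on all 24 arrays was required. That filter leaves out Ifi205, so the setting cannot test its call. With 1 brain array left out, the contrast called 0 to 2. The granulocyte median ran to -3.14 without B6 replicate 1 and the meningeal one to -0.08 without B6 replicate 2. The alternatives for lists (scaling, replicate 2, single arrays left out) and the contrast without single arrays were added after seeing the data. Dim probes limit the result: the median difference was -0.13 in the dimmest 20% of probes and -0.02 in the brightest 20%.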
